A study of Homo sapiens with 6 samples.

Results

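Ferroptosis is a form of cell death in which iron drives the oxidation of membrane lipids. Cells take up iron through the transferrin receptor, store it in ferritin, release it from ferritin by autophagy and export it through ferroportin. Against lipid peroxidation they set glutathione, made from imported cystine, and coenzyme Q. The genes followed here after silencing of TRIM28 belong to these routes and are GPX4, ACSL4, AIFM2, LPCAT3, TFRC, FTH1, FTL, SLC40A1, NCOA4 and SLC3A2. They were chosen by gene name and are 10 of the 78932 genes in the count table.

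RNA was sequenced from T24 cells, a human urothelial carcinoma cell line. One group of 3 libraries came from cells transfected with the control siRNA (siNC), and the other group of 3 from cells transfected with siRNA against TRIM28 (siTRIM28). TRIM28 is a corepressor and SUMO ligase, and the study asked what its loss does to the transcriptome of bladder cancer cells. All 6 libraries were made from poly(A) RNA with a stranded kit and carry batch label 1. The labels call the libraries of a group biological replicates, do not state whether the transfections were done separately, and do not say which TRIM28 siRNA was used. The p-values therefore measure the spread between these libraries.

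Between 11712623 and 14018052 reads were counted on genes per library. TRIM28 itself (ENSG00000130726) had 1419, 1393 and 1382 counts in siNC and 130, 96 and 109 in siTRIM28, a log2 fold change (log2FC) of −3.54 (SE 0.0723). The epithelial keratin KRT8 lay at 103 and 114 CPM (counts scaled to library size after TMM normalization) in siNC and siTRIM28, whereas the leukocyte marker PTPRC and the globins HBA1 and HBB stayed at or under 0.313 CPM in each library. KRT18 lay at 85.8 and 90.9 CPM, and vimentin (VIM) was higher in siTRIM28, at 1384 against 1099 CPM. The endothelial marker PECAM1 had 5, 4 and 6 counts in siNC and 10, 9 and 11 in siTRIM28, under the count minimum for a test. The part of these markers in the results was not tested. Replicates of a group were not equally close. The chi-square of their counts per degree of freedom was 1.08 between siNC replicates 1 and 2 but 4.54 and 4.61 against siNC replicate 3. It was 1.24 between siTRIM28 replicates 2 and 3 but 7.09 and 6.40 against siTRIM28 replicate 1. Results that rest on siTRIM28 replicate 1 are therefore also given without it.

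Several of these transcripts carry an iron-responsive element, a short RNA hairpin read by the iron regulatory proteins ACO1 and IREB2. When iron is scarce, binding of these proteins near the start of the ferritin and ferroportin mRNAs blocks their translation, and binding in the 3′ UTR of the TFRC mRNA protects it from decay. A pattern of the hairpin was searched in the GENCODE v29 transcripts, with a bulged C, a loop of CAGTGN and 5 paired bases between them, G-T pairs allowed. The matches in the members are shown as 29 bases each, since FTH1, FTL, SLC40A1 and TFRC are the textbook carriers of this element. The capitals mark the first 5 bases of the loop, and the coordinates are those of GRCh38.
FTH1, 5′ UTR, chr11:61967574-61967602, minus strand: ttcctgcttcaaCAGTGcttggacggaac
FTL, 5′ UTR, chr19:48965335-48965363, plus strand: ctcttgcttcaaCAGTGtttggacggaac
SLC40A1, 5′ UTR, chr2:189580661-189580689, minus strand: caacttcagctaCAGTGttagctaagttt
TFRC, 3′ UTR, chr3:196050979-196051007, minus strand: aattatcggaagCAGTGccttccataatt
TFRC, 3′ UTR, chr3:196050575-196050603, minus strand: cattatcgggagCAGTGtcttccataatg
TFRC, 3′ UTR, chr3:196050510-196050538, minus strand: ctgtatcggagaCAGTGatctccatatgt
TFRC, 3′ UTR, chr3:196050463-196050491, minus strand: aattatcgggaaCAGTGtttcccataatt

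The 4 TFRC sites all lay in the last of its 19 exons. Of 12277 tested genes with an annotated coding transcript, 20 (0.163%) held the pattern in a 5′ UTR and 103 (0.839%) held it in a 3′ UTR. Only 2 of them held 3 or more in the 3′ UTR, and 4 was the highest number found in 1 gene. A match describes the letters of the transcript and does not show binding.

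Of the 10 members, 8 reached the count minimum of 10 counts in at least 3 libraries and were tested. Of these 8, 5 were higher in siTRIM28 at an adjusted p under 0.05 (edgeR quasi-likelihood F test, Benjamini-Hochberg adjustment), namely AIFM2, SLC3A2, FTH1, FTL and TFRC. Over all 18474 genes tested, 41.8% passed this threshold, 21.3% higher and 20.5% lower in siTRIM28. None of the 8 members was lower, a count of 0 that was the same with DESeq2, with limma-voom and at an unadjusted p under 0.05 in edgeR. LPCAT3, NCOA4 and GPX4 did not pass. The values of both groups did not overlap in the 5 higher members, a property shared by 52.0% of all genes tested. The median log2 fold change was 0.37 for the tested members and 0.02 for all genes tested. The changes are per RNA sequenced, so more expressing cells and more RNA per cell cannot be told apart.

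**Figure D1:**
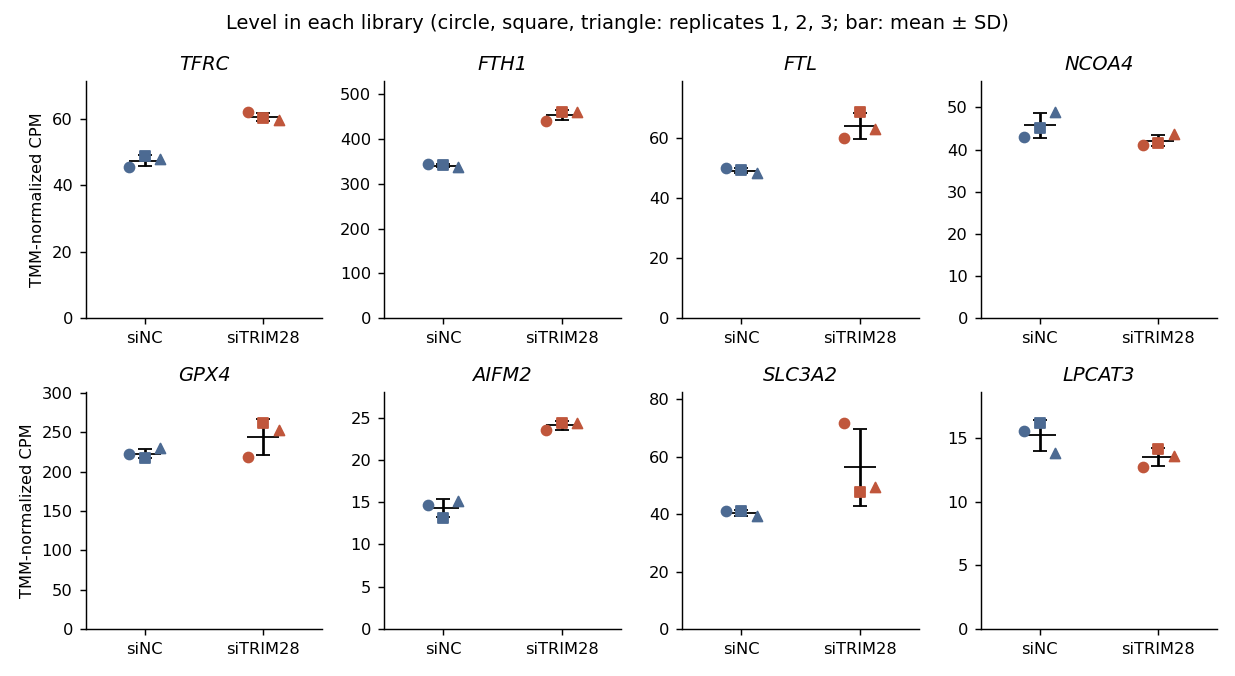
TMM-normalized CPM (vertical axes, from 0, a separate scale per gene) of the 8 tested members in each library. Circles, squares and triangles are replicates 1, 2 and 3, and bars give the mean ± SD (n = 3); TFRC, FTH1, FTL, AIFM2 and SLC3A2 show no overlap between siNC and siTRIM28, and SLC3A2 has 1 siTRIM28 library at 71.9 CPM against 47.6 and 49.6.

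TFRC (ENSG00000072274, chromosome 3, 196012511 to 196082090) encodes the receptor that brings transferrin-bound iron into the cell. Its level was 45.7, 48.9 and 47.8 CPM in siNC and 62.1, 60.2 and 59.7 CPM in siTRIM28. All 3 siTRIM28 libraries lay above all 3 siNC libraries, and both groups were tight. The log2FC was 0.35 (SE 0.0559, 95% interval 0.23 to 0.48, adjusted p = 0.000342 in the edgeR quasi-likelihood F test), a rise of 27.9%. An exact two-sided permutation test of log2 CPM gave p = 0.1 for this and each of the other 4 higher members, the smallest p that 3 libraries against 3 allow.

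FTH1 (ENSG00000167996, chromosome 11, 61959718 to 61967631) encodes the heavy chain of ferritin, the subunit that oxidizes iron for storage. It was the most abundant member per length, and its level was 343, 342 and 337 CPM in siNC and 440.2, 459.8 and 459 CPM in siTRIM28. The gap between the groups was larger than the spread within either. The log2FC was 0.41 (SE 0.0371, 95% interval 0.33 to 0.49, edgeR adjusted p = 4.51e-06), a rise of 33.1%.

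FTL (ENSG00000087086, chromosome 19, 48965309 to 48966879) encodes the light chain of ferritin, which helps the mineral core to form. It had 49.9, 49.2 and 48.2 CPM in siNC and 60.1, 68.6 and 62.9 CPM in siTRIM28. The siTRIM28 libraries were again all higher, with replicate 2 the highest. FTL rose by 29.99% (log2FC 0.38, SE 0.062, edgeR adjusted p = 0.000456).

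Both ferritin chains rose, so their ratio was compared next. The ratio of FTH1 counts to FTL counts within a library was 6.93 ± 0.061 in siNC and 7.11 ± 0.353 in siTRIM28 (means with SD, n = 3 per group). The log2 difference of 0.04 was within the replicate error (exact two-sided permutation test, p = 0.4). For uptake against storage, the ratio of TFRC counts to FTH1 counts was 0.139 ± 0.00542 in siNC and 0.134 ± 0.00622 in siTRIM28 (log2 difference −0.06, exact two-sided permutation test, p = 0.2). Leaving out 1 library at a time gave log2 differences of 0.013 to 0.077 for FTH1 to FTL and −0.096 to −0.036 for TFRC to FTH1. With 3 libraries a group these tests cannot show that the ratios were equal.

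The counts of the ferritin genes include an uncertainty of annotation. FTH1 shares 59.9% of its span with BEST1 on the opposite strand, a channel gene known mainly from the retinal pigment epithelium. BEST1 counts were between 63.4% and 68.0% of the FTH1 counts in each of the 6 libraries, and BEST1 rose by 0.42 on the log2 scale, close to FTH1. An uncharacterized gene on the opposite strand of FTH1 (ENSG00000303745) had 32.7% to 34.2% of the FTH1 counts in each library and a log2FC of 0.40. FTL is likewise overlapped by ENSG00000305635, which had 66.1% to 71.5% of the FTL counts and a log2FC of 0.38. The sources do not say whether reads were assigned by strand, so those of these pairs cannot be told apart. Among 27 FTH1 pseudogenes, 22 had a count, and their summed counts were 2.72% to 3.63% of those of FTH1. For FTL, 6 of 18 pseudogenes had a count, with 0.648% to 1.61% of the FTL counts in sum.

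NCOA4 (ENSG00000266412, chromosome 10, 46005088 to 46030607) is the cargo receptor that carries ferritin to the autophagosome and so frees its iron. It had 43.1, 45.2 and 48.9 CPM in siNC and 41.1, 41.6 and 43.6 CPM in siTRIM28. The groups overlapped, since siTRIM28 replicate 3 lay above siNC replicate 1. The log2FC was −0.12 (95% interval −0.26 to 0.03, edgeR adjusted p = 0.173). Without siNC replicate 3, the highest library, it was −0.067.

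SLC40A1 (ENSG00000138449, chromosome 2) encodes ferroportin, the iron exporter, and was close to absent from these libraries. It had 2, 1 and 1 counts in siNC and 2, 0 and 1 in siTRIM28. Summed over a group this was 0.0979 CPM in siNC (exact Poisson 95% interval 0.0267 to 0.251) and 0.0799 CPM in siTRIM28 (0.0165 to 0.233), intervals that cover counting error only. A difference was not detectable at this depth.

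GPX4 (ENSG00000167468, chromosome 19, 1103982 to 1106779) encodes the selenoenzyme that reduces lipid hydroperoxides with glutathione. It was the second most abundant member per length, and its level was 222, 217 and 229 CPM in siNC and 218, 262 and 252 CPM in siTRIM28. In siTRIM28, replicates 2 and 3 were above all siNC libraries, and replicate 1 lay among them. The log2FC was 0.13 (SE 0.0616, 95% interval −0.0031 to 0.27, edgeR adjusted p = 0.108). Without siTRIM28 replicate 1 it was 0.21 and passed the threshold (edgeR adjusted p = 7.4e-05), so this result turns on 1 library.

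AIFM2 (ENSG00000042286, chromosome 10, 70098223 to 70132934) encodes FSP1, an oxidoreductase that regenerates coenzyme Q at membranes and limits lipid peroxidation without glutathione. AIFM2 had 14.6, 13.1 and 15.1 CPM in siNC and 23.5, 24.4 and 24.4 CPM in siTRIM28. The siTRIM28 libraries were nearly equal to each other and well above siNC. Its log2FC of 0.76 was the largest among the tested members (SE 0.0721, 95% interval 0.60 to 0.91, edgeR adjusted p = 7.26e-06), a rise of 68.8%. The annotated AIFM2 span shares 40.5% of its length with MACROH2A2 on the opposite strand. MACROH2A2 went the other way, with a log2FC of −0.42 (edgeR adjusted p = 0.00123). Its counts were 194.6% to 246.7% of those of AIFM2 in siNC and 90.3% to 102.1% in siTRIM28. How reads of the shared stretch were assigned is not known here either.

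SLC3A2 (ENSG00000168003, chromosome 11, 62856004 to 62888860) encodes the heavy chain of several amino acid transporters, among them the cystine importer in which SLC7A11 is the light chain. SLC3A2 had 41.1, 41.1 and 39.2 CPM in siNC and 71.9, 47.6 and 49.6 CPM in siTRIM28. All siTRIM28 libraries were higher, but replicate 1 stood far above the other two. The log2FC was 0.48 (SE 0.129, 95% interval 0.20 to 0.76, edgeR adjusted p = 0.0103). It was 0.26 without siTRIM28 replicate 1 (edgeR adjusted p = 0.00177), so the direction and the call held while the size fell by more than 1.5 times, to the lowest of the 5 higher members. SLC3A2 shares 441 bases with SNHG1, a small nucleolar RNA host gene on the opposite strand. SNHG1 had between 31.5% and 48.4% of the SLC3A2 counts in each library and a log2FC of 0.33 (edgeR adjusted p = 0.00875).

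The light chain SLC7A11 was low in T24, at 2.64 ± 0.328 CPM in siNC and 3.25 ± 0.547 CPM in siTRIM28 (n = 3 each). Its log2FC of 0.30 did not pass the threshold (95% interval −0.12 to 0.72, edgeR adjusted p = 0.233), and it was 0.18 without siTRIM28 replicate 3. The ratio of SLC3A2 counts to SLC7A11 counts was 15.5 ± 2.09 in siNC and 17.6 ± 4.43 in siTRIM28. The log2 difference of 0.16 was within the replicate error (exact two-sided permutation test, p = 0.7), and it ran from −0.02 without siTRIM28 replicate 1 to 0.35 without siTRIM28 replicate 3.

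ACSL4 and LPCAT3 act on the fuel of ferroptosis. ACSL4 activates polyunsaturated fatty acids, and LPCAT3 puts them into membrane phospholipids, where they can be oxidized. LPCAT3 (ENSG00000111684, chromosome 12, 6976185 to 7018476) had 15.6, 16.2 and 13.8 CPM in siNC and 12.7, 14.1 and 13.6 CPM in siTRIM28. The groups overlapped, and the log2FC was −0.18 (95% interval −0.36 to 0.01, edgeR adjusted p = 0.113). LPCAT3 also lies across a long uncharacterized gene on the opposite strand (ENSG00000290146), which had between 477% and 842% of its counts and a log2FC of 0.03.

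ACSL4 (ENSG00000068366, chromosome X, 109624244 to 109733325) had 1 count in siNC replicate 1 and 0 in the other 5 libraries. In siNC this is 0.0245 CPM (exact Poisson 95% interval 0.00062 to 0.136), and in siTRIM28 the 3 counts that a count of 0 allows correspond to 0.0799 CPM, and the same exact interval reaches 0.0982 CPM. Expression of ACSL4 was thus not detectable at this depth beyond 1 read, in either group. Other enzymes of its family were measured well. ACSL3, which favours monounsaturated fatty acids, had 67.4 ± 2.17 CPM in siNC and 61.9 ± 1.6 CPM in siTRIM28 (log2FC −0.12, edgeR adjusted p = 0.0824), and ACSL1 had between 237 and 325 counts per library with a log2FC of −0.0035. ACSL5 had 5 to 13 counts and ACSL6 0 to 2.

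**Figure D2:**
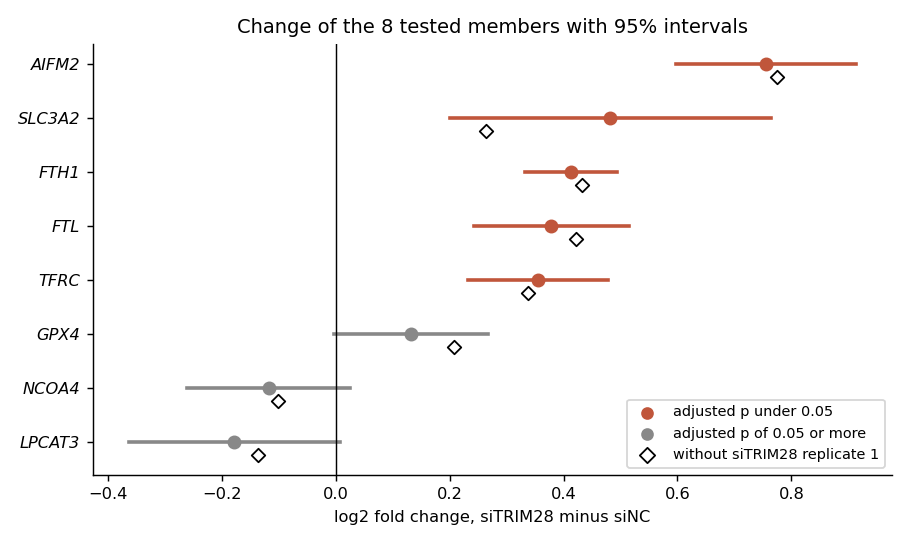
Log2 fold change (siTRIM28 minus siNC, horizontal axis) of the 8 tested members from edgeR, with 95% intervals as lines. Red points have an adjusted p under 0.05, grey points do not, and open diamonds give the estimate without siTRIM28 replicate 1, which moves SLC3A2 from 0.48 to 0.26 and GPX4 from 0.13 to 0.21.

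Levels of different genes can be set side by side only per transcript length. In siNC, in reads per kilobase of the length given in the count table, on the CPM scale (RPKM), the order was FTH1 at 170 (169.9 ± 1.49), GPX4 at 121 ± 3.38, FTL at 23.8 ± 0.407, NCOA4 at 11.5 ± 0.744 and SLC3A2 at 6.33 ± 0.165. LPCAT3 at 3.24 ± 0.262, AIFM2 at 2.78 ± 0.202 and TFRC at 2.73 ± 0.0952 followed, and the latter pair did not differ beyond their spread. SLC40A1 and ACSL4 were last, at 0.0232 and 0.0024 RPKM. Levels of members with opposite-strand genes, such as FTH1 and FTL, also carry the uncertainty of read assignment described above. The order depends on the length used. The table gives TFRC a length of 17376 bases against 5111 bases for its longest coding transcript, and per transcript length TFRC reached 9.29 RPKM, above LPCAT3 at 6.71 and AIFM2 at 4.40. By the same measure SLC3A2, at 18.2 RPKM, passed NCOA4 at 12.9.

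A short motif was searched near the start sites of the members because it is the core of the antioxidant response element, the site of the transcription factor NFE2L2 (NRF2). The motif, TGACNNNGC on either strand, was looked for in RefSeq promoter windows on GRCh38.p14, from 250 bases before to 50 bases after a start. Of the 9 members with a window, 3 held it, namely AIFM2, SLC3A2 and NCOA4. FTH1 was not searched, since it had no window in the table. The motif was in 13.3% of 35116 windows and in 19.3% of the 11033 tested genes with a window. The stretches of AIFM2 and SLC3A2, the higher members that hold the motif, are shown with the match in capitals.
AIFM2, chr10:70132814-70132872, minus strand: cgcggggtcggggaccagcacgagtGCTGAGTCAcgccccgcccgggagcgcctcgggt
SLC3A2, chr11:62881637-62881695, plus strand: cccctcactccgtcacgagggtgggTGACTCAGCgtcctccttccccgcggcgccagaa

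The AIFM2 match lay 22 bases before the start site and is read on the opposite strand, and the SLC3A2 match lay 37 bases before the start site of 1 of 3 windows. Both read TGACTCAGC in the direction of the motif and so also contain TGACTCA, the site of AP-1 factors. The NCOA4 match lay 23 bases after the start of 1 of its windows, and NCOA4 did not pass the test. NFE2L2 mRNA itself had 363, 381 and 360.4 CPM in siNC and 353, 301 and 301 CPM in siTRIM28, a log2FC of −0.21 (edgeR adjusted p = 0.0148). Without siTRIM28 replicate 1, the siTRIM28 library nearest to siNC, the log2FC of NFE2L2 was −0.29. NFE2L2 no longer passed without siNC replicate 2 (−0.19, edgeR adjusted p = 0.0527) or without siTRIM28 replicate 2 (−0.17, edgeR adjusted p = 0.059). A role of any factor at these letters was not tested.

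The other genes of iron handling and of ferroptosis were read from lists of general knowledge. Of 43 other iron handling genes 35 were tested, and 7 were higher, 5 lower and 23 not past the threshold, so 34.3% were called against 41.8% of all genes. Their median log2FC was 0.07. The number of lower genes was 3 without siNC replicate 1. Among the genes of iron uptake, STEAP3, the ferrireductase of the endosome, had 73.4 ± 3.94 CPM in siNC and rose to 87.9 ± 5.95 in siTRIM28, by 0.26 in log2FC with an edgeR adjusted p of 0.00571. SLC11A2 (DMT1), which moves iron from the endosome into the cytosol, had 15.9 ± 0.781 CPM in siNC and rose to 23.2 ± 0.986 in siTRIM28 (log2FC 0.54, edgeR adjusted p = 7.42e-05). Other list genes tied to uptake went differently. CYBRD1 and HFE were lower (log2FC −0.22 and −0.46, edgeR adjusted p = 0.0462 and 0.00994). STEAP1, STEAP2, SLC39A14 and SLC39A8 did not pass the threshold.

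Of the iron regulatory proteins that read the hairpins shown above, 1 changed. IREB2 (IRP2) had 18.02, 15.1 and 17.98 CPM in siNC and 12.7, 11.6 and 10.8 CPM in siTRIM28. The groups did not overlap, and IREB2 fell by 0.53 on the log2 scale (SE 0.0962, edgeR adjusted p = 0.000906). ACO1 (IRP1) had 50.3 ± 2.64 CPM in siNC and 48.6 ± 2.98 CPM in siTRIM28 (log2FC −0.05, 95% interval −0.19 to 0.10), and FBXL5, which marks these proteins for degradation when iron is plentiful, had a log2FC of 0.10 (95% interval −0.08 to 0.28). Neither passed the threshold (edgeR adjusted p = 0.601 and 0.345), and without siTRIM28 replicate 1 the log2FCs were −0.003 for ACO1 and 0.012 for FBXL5. That the changes of IREB2 and ACO1 differ was not tested. HMOX1, which frees iron from heme, had 4.95, 5.69 and 5.63 CPM in siNC and 11.1, 8.25 and 7.66 CPM in siTRIM28. Its log2FC was 0.74 (edgeR adjusted p = 0.00261), and 0.55 without siTRIM28 replicate 1, the highest library.

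Of 58 other ferroptosis genes 49 were tested. Of these, 9 were higher, 17 lower and 23 not past the threshold, 53.1% called against 41.8% of all genes, and the median log2FC was −0.08. Past the threshold and by at least 0.58 on the log2 scale, 2 rose and 7 fell. Of all 18474 genes tested, 1757 rose and 1387 fell by as much.

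In glutathione synthesis GCLM, the modifier subunit of the rate-limiting ligase, fell from 43.7 ± 0.372 to 21.9 ± 0.978 CPM (n = 3 each), by 1.00 on the log2 scale (adjusted p = 2.47e-07 in the edgeR quasi-likelihood F test). Its catalytic partner GCLC had 14.04 ± 0.671 CPM in siNC and 14.07 ± 0.589 CPM in siTRIM28 (log2FC 0.0023, 95% interval −0.17 to 0.17, edgeR adjusted p = 0.992). GSS, also of glutathione synthesis, was lower (log2FC −0.30, edgeR adjusted p = 0.00295). CHAC1, which degrades glutathione and is known as a ferroptosis marker, had 1 to 5 counts per library and was not tested. Among the genes of other antioxidant routes, QDPR, which recycles tetrahydrobiopterin, fell by 1.36 on the log2 scale and PDSS2, of coenzyme Q synthesis, fell by 0.92. DHCR7, whose substrate 7-dehydrocholesterol can itself trap lipid radicals, fell by 0.97. Other list genes of antioxidant routes did not all fall. PDSS1 and VKORC1L1 were lower (log2FC −0.48 and −0.37, edgeR adjusted p = 0.00897 and 0.00271), and TXNRD1 was higher (0.20, edgeR adjusted p = 0.000549). COQ2, GCH1 and DHODH did not pass the threshold (log2FC 0.0062, 0.32 and −0.24).

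In lipid remodelling AGPAT3, an acyltransferase of phospholipid synthesis, had the lowest value of the list. It went from 43.7, 41.1 and 47.6 CPM in siNC to 13.24, 13.22 and 13.05 CPM in siTRIM28, a log2FC of −1.74 (SE 0.0746, edgeR adjusted p = 1.71e-08). SCD, which makes the monounsaturated fatty acids that protect membranes, fell from 364 ± 3.82 to 236 ± 5.44 CPM, by 0.62 on the log2 scale (edgeR adjusted p = 2.23e-07). Other lipid genes of the list did not all fall. MBOAT2 and PEDS1 were higher (log2FC 0.29 and 0.48, edgeR adjusted p = 0.00422 and 0.000161), and FADS2 was lower (−0.26, edgeR adjusted p = 0.0365). FADS1, ELOVL5, MBOAT1, FAR1, AGPS and GNPAT did not pass the threshold. Of the regulators, CDKN1A, the cell cycle inhibitor also known as p21, rose by 0.99 and SQSTM1, an autophagy receptor that binds KEAP1, rose by 0.62 on the log2 scale. No overlap was part of the rule by which QDPR, PDSS2, DHCR7, AGPAT3, CDKN1A and SQSTM1 were named. GCLM and SCD, named whatever their values, showed no overlap either. Of the 49 other ferroptosis genes tested, the values of siNC and siTRIM28 did not overlap in 32. Over all genes tested this was so in 52.0%.

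**Figure D3:**
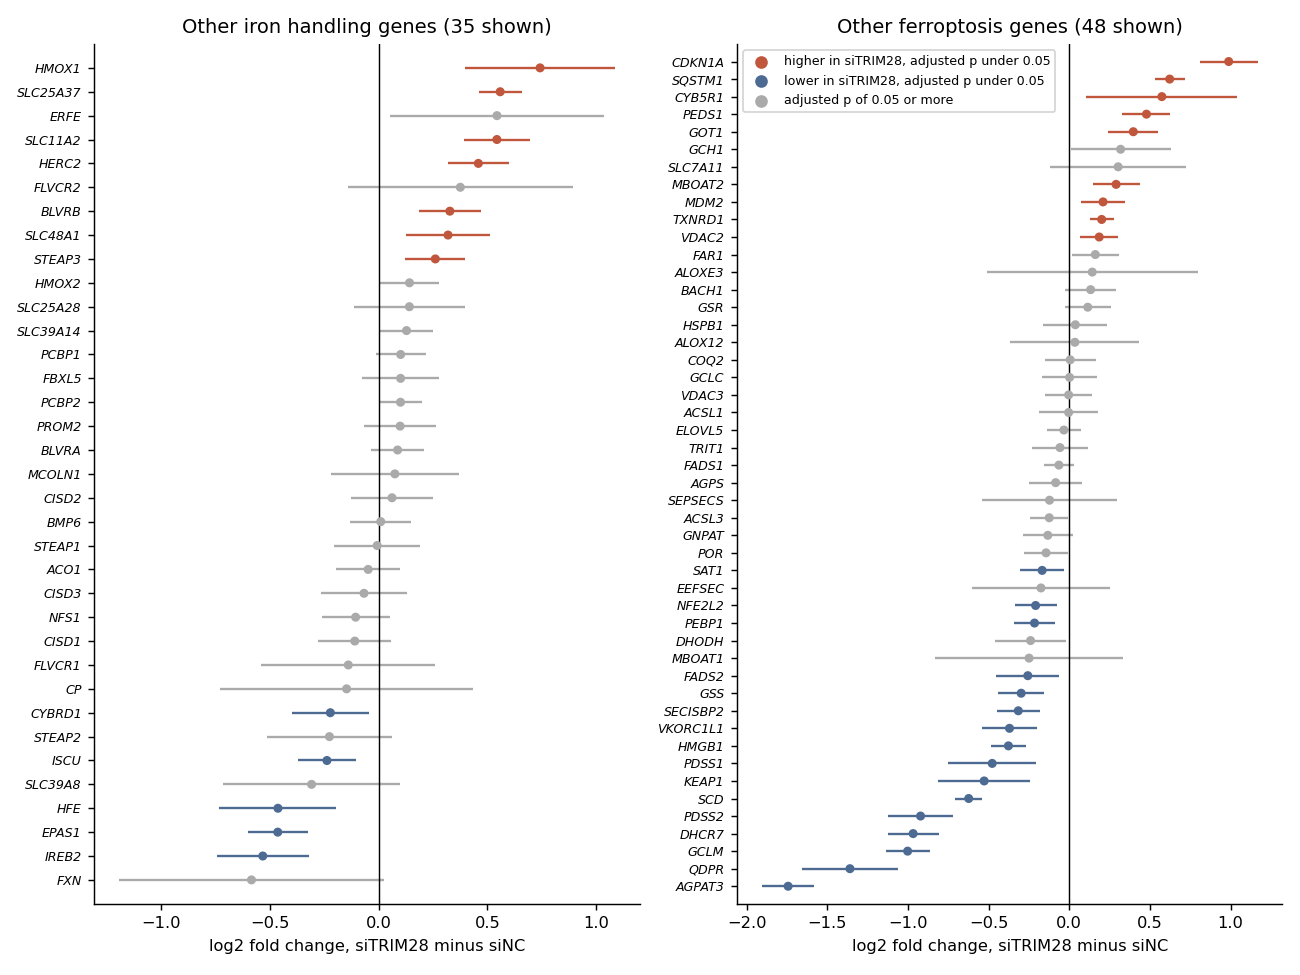
Log2 fold change (siTRIM28 minus siNC, horizontal axes) of the 35 other iron handling genes tested and of 48 of the 49 other ferroptosis genes tested, ordered by value, with 95% intervals from edgeR as lines. Red and blue mark genes higher and lower at an adjusted p under 0.05 and grey the rest; the ferroptosis list reaches from −1.74 in AGPAT3 to 0.99 in CDKN1A.

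The siRNAs used for silencing can lower other transcripts through their seed, guide bases 2 to 8, so matches were counted in the longest 3′ UTR of each gene. None of the 10 members held a match to the seed of siTRIM28-2, which 2181 of 12117 tested genes with a 3′ UTR held. AIFM2 and TFRC, both higher in siTRIM28, held 1 match each to the seed of siTRIM28-1, present in 15.3% of these genes. Of the lower genes named above, IREB2, GCLM, AGPAT3 and SCD held 1 match each to the siTRIM28-2 seed, and GCLM and PDSS2 held 1 each to the siTRIM28-1 seed. The 3′ UTRs searched had 3314 bases in IREB2, 3786 in GCLM, 4145 in AGPAT3, 3902 in SCD and 2063 in PDSS2. PDSS2 also held 1 match to the siNC seed. QDPR, DHCR7 and NFE2L2 held none of these matches, in shorter 3′ UTRs of 734, 962 and 902 bases. The counts of matches take no account of length. Matches in the other lower genes named above, such as CYBRD1 and HFE, are not given here. Which of these siRNAs was given is not stated, and the part of such matches in the changes of these genes was not tested.

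The near absence of ACSL4 was shared by its neighbours. Between COL4A5 and ALG13, the nearest tested protein-coding genes on either side, 2.97 Mb of chromosome X held 13 protein-coding genes including ACSL4. These 13 genes had 54 counts in all over the 6 libraries, and none had more than 6 counts in 1 library. NXT2, TMEM164, AMMECR1, RTL9 and SERTM2 had 0 counts throughout. Over chromosome X as a whole, 49.5% of 840 protein-coding genes reached the count minimum. Within 5 Mb on each side of ACSL4, 15 of the 32 other protein-coding genes outside this stretch were tested. These lay on the side of COL4A5, except for ALG13. Beyond ALG13, TRPC5, TRPC5OS, RTL4, LHFPL1, AMOT and HTR2C also stayed under the count minimum. The stretch runs between the nearest tested genes, so by definition none of its genes was tested. The stretch was chosen after the counts of ACSL4 were seen, both groups lay under the count minimum in it, and the genome of these cells was not analysed here.

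**Figure D4:**
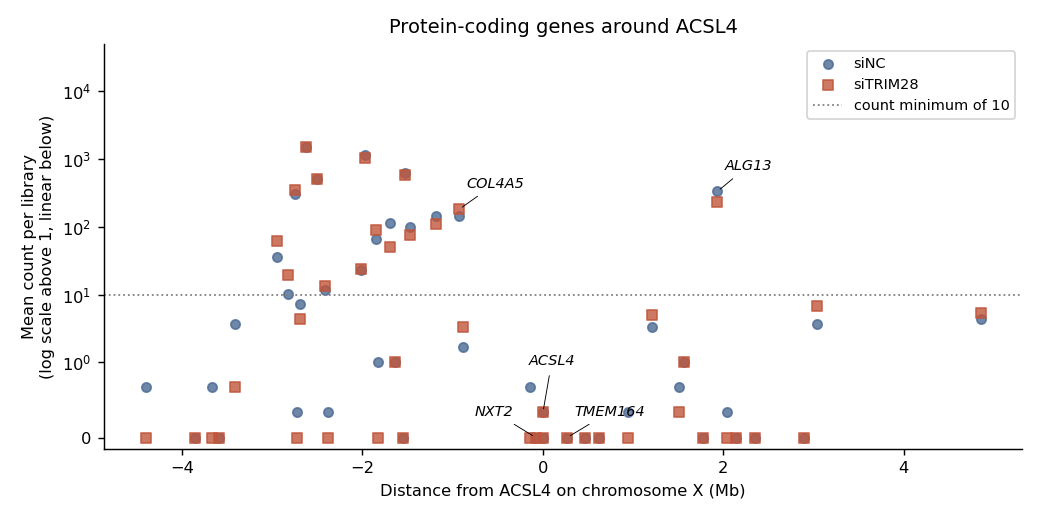
Mean count per library (vertical axis, log scale above 1 and linear below) of protein-coding genes by their distance from ACSL4 (horizontal axis, Mb), in siNC (circles) and siTRIM28 (squares). The dotted line is the count minimum of 10; the 13 genes between COL4A5 and ALG13 all lie under it in both groups.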

How the data were processed

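The deposited table holds read counts, not normalized by the authors, of 78932 Ensembl genes on GRCh38 in 6 columns, 1 per library. The submitters' processing notes name fastp 0.23.1, STAR 2.7.6a and featureCounts. The annotation release, the strand setting and any removal of duplicates are not given in the sources used here. The deposited RPKM table of genes the authors selected as differing was not used.

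After TMM scaling, the groups were compared by the quasi-likelihood F test of edgeR 4.0.16 (R 4.3.3) with condition as the term. It was run on 18474 genes that reached 10 counts in 3 or more of 6 libraries. P-values were adjusted by Benjamini-Hochberg, and 0.05 was the threshold. SE is that of log2FC, and each mean with its SD refers to CPM on the TMM scale. Individual genes and count ratios were also compared by exact two-sided permutation (prior count 2 for log2 CPM). At 11712623 to 14018052 counts per library, 10 counts lie under 1 CPM. The tests were checked on simulated counts.

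The members and lists were chosen with earlier results of these data known. The text names the 10 members, TRIM28, a fixed set of pathway genes (SLC7A11, GCLM, CHAC1, HMOX1, NFE2L2, ACO1, IREB2, FBXL5, SLC11A2, STEAP3, ACSL3, SCD), and each other list gene with an adjusted p under 0.05, a change of 0.58 or more in log2FC, up or down, and no overlap, of which 1 is not reported here by name. GCLC, GSS, overlapping genes, other ACSL genes and the neighbours of ACSL4 were named after their values were seen. So were other genes of iron uptake, antioxidant routes and lipid metabolism.

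Hairpins and seed matches were searched in GENCODE v29 transcripts, and promoter windows are from RefSeq (GRCh38.p14), which held 9 of the 10 members. Alternatives were 3 other scalings (total counts, upper quartile, RLE), limma-voom 3.58.1, DESeq2 1.42.0, 2 other filters, the replicate number as a block, close pairs summed and each library left out. Figures were made with Python 3.11.15 and matplotlib 3.10.9.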

Additional observations from a re-analysis of the deposited data

How the results depend on the processing

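The 5 higher members kept their direction and their call under all alternatives run. GPX4 passed the threshold only when siTRIM28 replicate 1 was left out, with log2 fold changes of 0.078 to 0.21 over the libraries left out, and SLC3A2 ranged from 0.26 to 0.59. The number of other iron handling genes called lower (5) was 3 with close pairs summed and 3 to 6 with each library left out. With close pairs summed STEAP3 (0.22, adjusted p = 0.0872, edgeR) and NFE2L2 (−0.16, adjusted p = 0.163, edgeR) no longer passed. The count of all genes called ran from 5878 (DESeq2) to 8018 (no filter), and from 6367 to 8252 with each library left out. With the replicate number as a block, 7910 genes were called against 7723, and no call of a member changed. Deviations of same-numbered libraries correlated at 0.07, −0.02 and 0.05 over 12828 genes. Replicates 1 and 3 correlated best with their own number, and replicate 2 did not. With 3 libraries a group these values cannot decide whether the numbers pair the libraries. Upper-quartile scaling gave 56.6% of the calls as higher against 51.1% with TMM. Depth limits what can be said of ACSL4, SLC40A1 and CHAC1, and an effect of the siRNA duplex cannot be told apart from one of TRIM28 loss.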
